A study of Mus musculus with 12 samples.

Results

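TRAJ23 clonotypes are the TCRα sequences of newly developed thymic regulatory T lymphocytes (Treg) in which the joining segment TRAJ23 was used. They were chosen by the J segment assigned in the deposited tables and by a CDR3 that reads in frame, and TRAJ23 itself was singled out with its levels in these libraries already known. In all, 1346 in-frame clonotypes used TRAJ23, where a clonotype is a V segment, a CDR3 amino acid sequence and a J segment. The whole series held 22578 clonotypes, of which 20615 were in frame. The in-frame TRAJ23 clonotypes held 12189 of the 199248 molecules counted, or 6.12%, and were made of 1818 nucleotide sequences with 78 V segment names.

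The libraries came from 12 individual mice on the B6 background aged 3 weeks, with 4 wt, 4 Il2° and 4 Il15° animals. Il2° mice lack IL-2 and Il15° mice lack IL-15. All mice, the wt ones included, carried the Rag2-Gfp and Foxp3-Thy1a reporters, the Kaa Tcrb transgene and 1 functional Tcra allele (Tcra+/null), so that every cell had the same TCRβ chain and the TCRα chain told clonotypes apart. From each mouse 100000 CD4+CD8-Thy1.1+GFP+ thymocytes were sorted. GFP marks cells in which Rag2 was recently expressed and Thy1.1 marks expression of Foxp3. Tcra transcripts alone were sequenced, so neither markers of other cell types nor the genotypes could be checked in these tables. Each molecule carried a unique molecular identifier (UMI), and all values are counts of UMIs or percentages of them. A cell can give several UMIs, so more cells of a clonotype and more Tcra RNA per cell cannot be told apart.

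A TCRα chain is made when 1 V and 1 J segment of the Tcra locus are joined during development of a thymocyte. Bases are trimmed from both ends and others are inserted at the junction, and the joined part forms the CDR3 loop, which contacts the peptide presented by the MHC molecule. Successive rearrangements on an allele use V and J segments ever farther apart, so that a cell that fails selection can replace its chain. Foxp3+ Treg are selected in the thymus on self-ligands, and IL-2 and IL-15 act on their development through receptors that share the β and the common γ chain.

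Traj23 lies on the forward strand of chr14:54196081-54196140 (GRCm38, a single exon of 60 bases annotated as a J segment). The germline segment is shown first because every comparison of the CDR3 refers to it, with the bases that belong to the CDR3 in capitals. The sequences after it are the most frequent nucleotide forms of abundant or compared clonotypes, and their capitals mark the run of bases at the end of the CDR3 that matched germline TRAJ23.
TRAJ23 germline segment: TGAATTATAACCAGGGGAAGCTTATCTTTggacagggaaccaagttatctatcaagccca
TRAV6D-6 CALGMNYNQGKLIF: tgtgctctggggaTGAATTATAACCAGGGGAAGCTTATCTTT
TRAV7N-5 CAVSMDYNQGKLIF: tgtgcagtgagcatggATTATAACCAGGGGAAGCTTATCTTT
TRAV7-2 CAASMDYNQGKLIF: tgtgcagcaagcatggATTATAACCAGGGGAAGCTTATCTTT
TRAV7-2 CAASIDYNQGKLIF: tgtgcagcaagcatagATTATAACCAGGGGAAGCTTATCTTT
TRAV6-5 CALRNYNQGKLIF: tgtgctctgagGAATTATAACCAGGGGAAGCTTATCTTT
TRAV12D-2 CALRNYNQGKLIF: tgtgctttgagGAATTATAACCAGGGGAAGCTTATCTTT
TRAV3-3 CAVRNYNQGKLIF: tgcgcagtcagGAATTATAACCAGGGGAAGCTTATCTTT
TRAV4D-3 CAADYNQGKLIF: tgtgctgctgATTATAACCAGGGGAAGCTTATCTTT

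TRAJ23 was the fourth most used J segment in each genotype by the mean over mice, and its level is given as a description without a test. In wt mice it made up 5.63%, 5.68%, 6.37% and 6.78% of the UMIs of the library, and in Il2° mice 5.38%, 5.39%, 6.13% and 6.64%. In Il15° mice it made up 7.55%, 6.07%, 5.00% and 6.85%. The 3 genotypes overlapped, and both the highest and the lowest library were Il15°. The means were 6.12% ± 0.557 in wt, 5.89% ± 0.612 in Il2° and 6.37% ± 1.10 in Il15° (SD, n = 4 mice each).

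**Figure D1:**
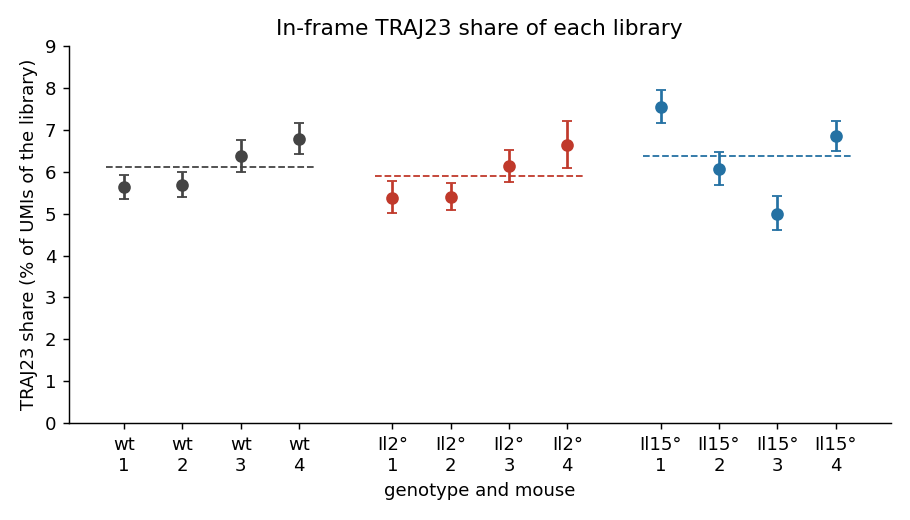
Share of in-frame TRAJ23 among all UMIs of a library (y axis, percent) for each mouse (x axis, by genotype). Points are single libraries with 95% Wilson intervals, which cover counting error only, and dashed lines are the means of 4 mice, 6.12% in wt, 5.89% in Il2° and 6.37% in Il15°.

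TRAJ31, TRAJ12 and TRAJ9 were used more than TRAJ23, with means over 12 libraries of 8.64%, 8.27% and 6.84%, and TRAJ22 followed with 5.46%. In wt and Il15° mice TRAJ23 differed from TRAJ9 and from TRAJ22 by less than the SD between mice. In Il2° mice TRAJ9 was at 7.35% ± 0.809 and TRAJ22 at 4.52% ± 0.559, both farther from TRAJ23 than the SD of either segment. The shares that rose and fell most with that of TRAJ23 over the 12 libraries were those of TRAJ39, TRAJ22 and TRAJ16, with Spearman's rho of 0.67, 0.55 and 0.53 among J segments at 1% or more. Shares of a library add up to a fixed total, and these correlations are descriptions.

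TRAJ23 was joined to segments of 78 V names, and a few of them held most of its UMIs. The 13 segments that held on average at least 3% of the TRAJ23 UMIs in a genotype together carried 73.8% of them. TRAV7-2 (chr14:53390635-53391142) was the most frequent partner, with 11.8% to 14.8% of TRAJ23 UMIs in wt, 13.3% to 20.2% in Il2° and 10.6% to 17.3% in Il15° libraries. TRAV4D-3 (chr14:52899969-52900470) followed with 8.84% ± 3.04, TRAV6D-6 with 6.91% ± 1.10, TRAV4N-3 with 6.64% ± 2.63, TRAV3D-3 with 6.63% ± 1.85 and TRAV7N-5 with 5.84% ± 2.20 (mean ± SD, 12 libraries). The Tcra locus of B6 mice holds several near-identical copies of many V segments, marked D and N in the names, and reads can be split between copies.

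This set of V partners differed from that of the other J segments in the same mice. TRAV7-2 held 14.3% ± 2.51 of TRAJ23 UMIs and 5.72% ± 1.05 of the UMIs of other J segments, TRAV7N-5 5.84% against 0.375%, TRAV6-3 4.80% against 0.608%, TRAV6D-6 6.91% against 1.95% and TRAV3D-3 6.63% against 2.61%. Each of these 5 was higher in TRAJ23 in 12 of 12 libraries, with an exact 2-sided sign-flip permutation p of 0.000488, the smallest that 12 mice allow, and 0.00201 after Benjamini-Hochberg adjustment over 78 V names. TRAV4D-3 (8.84% against 16.8%), TRAV4D-4 (3.51% against 6.92%) and TRAV12N-3 (2.85% against 5.70%) were lower in 12 of 12 libraries with the same p values. By families, TRAV7 held 28.2% of TRAJ23 UMIs against 19.5% of the others, TRAV6 18.5% against 9.16%, and TRAV4 19.5% against 32.8%. With each clonotype counted once, the excess of TRAV6D-6 was 0.165 percentage points (exact permutation p = 0.491), while that of TRAV7-2 was 5.62 and that of TRAV7N-5 was 2.03 (both p = 0.000488). This comparison was added after the values had been seen.

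**Figure D2:**
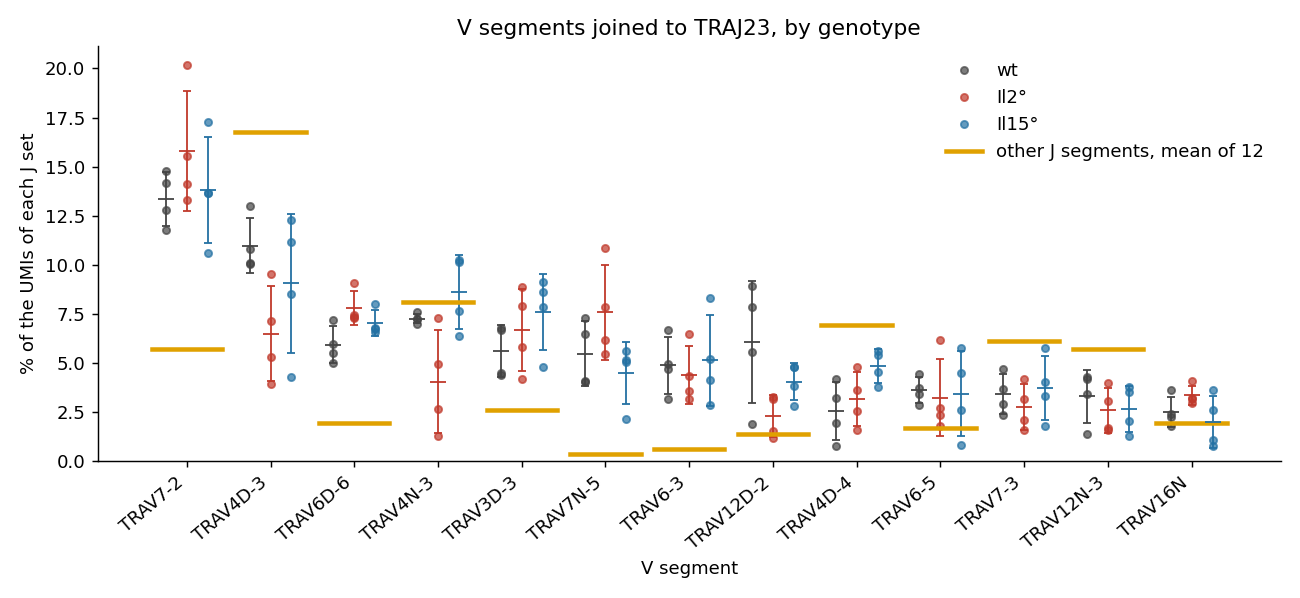
Percent of TRAJ23 UMIs (y axis) joined to each of the 13 most used V segments (x axis). Points are mice, whiskers are mean ± SD of 4 mice per genotype, and the yellow bar is the mean over 12 libraries for all other J segments. TRAV7-2, TRAV6D-6, TRAV3D-3, TRAV7N-5 and TRAV6-3 lie above the bar, while TRAV4D-3, TRAV4D-4, TRAV12N-3 and TRAV7-3 lie below it.

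The next question was whether loss of IL-2 or of IL-15 changed the V partners of TRAJ23. No V-TRAJ23 pair passed the threshold of 0.05 in edgeR's quasi-likelihood test with Benjamini-Hochberg adjustment over all V-J pairs. In Il2° against wt mice 36 TRAJ23 pairs had enough UMIs to be tested and 0 were called, where 0.388% of all 515 pairs were. In Il15° against wt and in Il15° against Il2° mice 0 of 36 and 0 of 31 were called, beside 0% of all pairs in both comparisons. At an unadjusted p under 0.05 the counts were 3 of 36 TRAJ23 pairs beside 10.9% of all pairs for Il2° against wt, 2 of 36 beside 5.68% for Il15° against wt, and 4 of 31 beside 11.3% for Il15° against Il2°. The median log2 fold changes of the TRAJ23 pairs were 0.28, -0.11 and 0.12 in these comparisons, where the medians over all pairs were 0.12, -0.03 and -0.07. DESeq2 called 1 of 36 TRAJ23 pairs in Il2° against wt mice beside 2.14% of all pairs, and 0 in the other comparisons beside 0.758% and 0.849%.

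The 3 TRAJ23 pairs with the lowest p in Il2° against wt mice were all lower in Il2° libraries. TRAV12D-2 held 5.54%, 1.91%, 8.94% and 7.83% of TRAJ23 UMIs in wt and 1.54%, 1.19%, 3.29% and 3.16% in Il2° libraries. Only the second wt library lay within the Il2° range, and the log2 fold change was -1.38 ± 0.488 (SE, edgeR adjusted p = 0.296, and DESeq2 adjusted p = 0.0491). TRAV4D-3 held 12.99%, 10.1%, 10.8% and 10.0% in wt and 5.32%, 7.16%, 9.54% and 3.95% in Il2° libraries. These groups did not overlap, yet the log2 fold change of -0.70 ± 0.288 had an edgeR adjusted p of 0.371. TRAV4N-3 was between 6.97% and 7.58% in wt and at 7.28%, 1.29%, 2.65% and 4.94% in Il2° libraries (log2 fold change -0.88 ± 0.385, edgeR adjusted p = 0.386).

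TRAV4D-3 and TRAV4N-3 are copies of the same segment, and with all copies merged the difference did not depend on which copy a read was given to. TRAV4-3 joined to TRAJ23 then held 17.3% to 20.2% of TRAJ23 UMIs in wt, 8.45% to 12.6% in Il2° and 14.5% to 21.5% in Il15° libraries. All 4 Il2° libraries lay below every wt and every Il15° library. The log2 fold change was -0.82 ± 0.217 for Il2° against wt (edgeR adjusted p = 0.122) and 0.94 ± 0.276 for Il15° against Il2° (edgeR adjusted p = 0.0770), neither past the threshold.

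In Il15° against wt mice TRAV4D-4 had the lowest p among TRAJ23 pairs. It held 3.21%, 4.19%, 0.786% and 1.96% in wt and 3.75%, 5.63%, 5.40% and 4.56% in Il15° libraries, with a single wt library inside the Il15° range (log2 fold change 0.96 ± 0.406, edgeR adjusted p = 0.716). In Il15° against Il2° mice it was TRAV4N-3, at 6.40%, 7.67%, 10.2% and 10.1% of TRAJ23 UMIs in Il15° libraries (log2 fold change 1.18 ± 0.396, edgeR adjusted p = 0.244). TRAV7-2, the leading partner, had log2 fold changes of 0.26 ± 0.237, 0.12 ± 0.251 and -0.13 ± 0.286 in the 3 comparisons.

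The germline part of the CDR3 ends in YNQGKLIF, and TRAJ23 CDR3s fell into a few classes by what precedes it. Sequences that keep 27, 28 or 29 germline bases read NYNQGKLIF, and 38.5% ± 4.68 of TRAJ23 UMIs ended so (12 libraries, 506 clonotypes). Sequences with 26 germline bases after a g read DYNQGKLIF, an end that made up 20.1% ± 4.09 in 96 clonotypes. A glycine at that place followed with 8.67% ± 1.83. In 7.42% ± 2.45 of UMIs fewer than 20 germline bases remained.

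By UMIs, the class differed between V families. In the TRAV7 family 47.8% ± 9.18 of TRAJ23 UMIs ended in DYNQGKLIF, against 11.7% ± 5.62 in TRAV6 and 1.44% ± 1.72 in TRAV12 (mean ± SD over 12 libraries). The TRAV6 and TRAV12 families ended in NYNQGKLIF in 76.0% ± 7.10 and 61.0% ± 12.4 of UMIs, against 21.4% ± 5.72 for TRAV7 and 18.8% ± 8.48 for TRAV4. Single clonotypes weighed in these shares. TRAV6D-6 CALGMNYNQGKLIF had 596 of the 2225 UMIs of TRAV6, and TRAV7N-5 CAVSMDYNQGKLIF had 458 of the 3331 of TRAV7. The shares were not taken with each clonotype counted once. TRAV7 segments supplied 67.2% ± 8.94 of all UMIs with the DYNQGKLIF end. Within it, 3 clonotypes ending in SMDYNQGKLIF alone held 6.45% ± 2.56 of TRAJ23 UMIs, and the leading forms on TRAV7N-5 and TRAV7-2 are shown above. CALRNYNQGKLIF on TRAV6-5 and on TRAV12D-2 had 28 germline J bases directly after the V bases, with 0 inserted bases in its most frequent form.

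Charged and hydrophobic residues preceded the J-encoded end more often in TRAJ23 than in other J segments. A charged residue (D, E, K or R) stood there in 61.9% ± 3.98 of TRAJ23 UMIs and in 46.9% ± 1.10 of the others, and an aromatic or aliphatic residue (F, I, L, M, V, W or Y) in 71.2% ± 4.16 against 56.1% ± 1.18. Both were higher in 12 of 12 libraries (exact 2-sided sign-flip permutation p = 0.000488, adjusted p = 0.000684 over 7 measures). With each clonotype counted once the differences were 10.5 percentage points for charged and 5.54 for aromatic or aliphatic residues, where by UMIs they were 15.06 and 15.1. The residues counted include those from the V segment, whose usage differs as given above. A codon only partly made of germline J bases also counts as lying before the J end. With all 29 TRAJ23 bases, kept in 18.1% of UMIs, that codon ends in TG and encodes L, M or V. With 26 bases it ends in AT and encodes D, H or Y. How much of the 2 differences comes from these germline bases was not tested. TRAJ23 CDR3s kept 25.4 ± 0.255 germline J bases against 25.9 ± 0.0518, lower in 12 of 12 libraries with the same p values, and germline J segments differ in the length of their CDR3 part.

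The mean CDR3 length was 13.15 ± 0.0949 residues in TRAJ23 and 13.08 ± 0.0248 in the others, a difference of 0.0728 (higher in 10 of 12 libraries, exact permutation p = 0.0410, adjusted p = 0.0410). With each clonotype counted once it was 0.142 residues shorter instead (a difference of -0.142). In TRAJ23, 31.6% ± 3.98 of UMIs had 13 residues and 40.3% ± 4.74 had 14. Inserted bases, taken as those matching neither germline end, averaged 3.17 ± 0.211 against 2.91 ± 0.0371 (higher in 12 of 12 libraries, exact permutation p = 0.000488, adjusted p = 0.000684). That difference of 0.266 bases turned to -0.0847 with the V and J positions of the deposited tables and to -0.0255 with each clonotype counted once, so its direction rests on the definition.

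Between genotypes, the mean CDR3 length and the mean number of germline J bases of TRAJ23 were higher in every Il2° and Il15° mouse than in every wt mouse, though the differences did not survive the correction given below, and for length in Il2° mice the separation was lost with each clonotype counted once. The mean length was 12.96, 13.07, 13.10 and 13.08 residues in wt, 13.21, 13.19, 13.24 and 13.31 in Il2°, and 13.14, 13.14, 13.25 and 13.11 in Il15° mice. All wt mice lay below all mutants. The mean number of germline J bases was 24.9, 25.1, 25.3 and 25.3 in wt, 25.7, 25.5, 25.5 and 25.6 in Il2°, and 25.5, 25.7, 25.6 and 25.5 in Il15° mice. Here too no wt mouse reached the range of a mutant. The differences from wt were 0.185 and 0.110 residues and 0.432 and 0.461 bases for Il2° and Il15°, and both comparisons share the same wt mice.

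These 4 differences met the smallest p that 4 against 4 mice allow but did not survive the correction. For each, the exact 2-sided Mann-Whitney p was 0.0286, and the adjusted p over the 27 tests of the family was 0.0964. In all, 8 of the 27 tests gave a p of 0.0286, and 0 passed after adjustment. With that smallest p and 27 tests, no single measure could pass by itself, however far apart its groups lay. The adjusted p therefore cannot decide whether a measure differed. With each clonotype counted once, the difference in length between Il2° and wt mice was 0.0697 residues (exact Mann-Whitney p = 0.686) and that between Il15° and wt 0.178 (p = 0.0286), so that Il15° CDR3s were longer than Il2° ones by 0.108 residues, while by UMIs they were shorter (a difference of -0.0749). The differences in J bases from wt were then 0.367 for Il2° and 0.880 for Il15° mice (exact Mann-Whitney p = 0.0286 each). The share of a V family with short CDR3s was lower in Il2° but not in Il15° mice. The TRAV4 family, whose TRAJ23 CDR3s averaged 11.97 ± 0.177 residues against 13.6 ± 0.123 for TRAV7, held 21.2%, 14.5% and 22.7% of TRAJ23 UMIs in wt, Il2° and Il15° mice, and its part in the result was not tested.

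**Figure D3:**
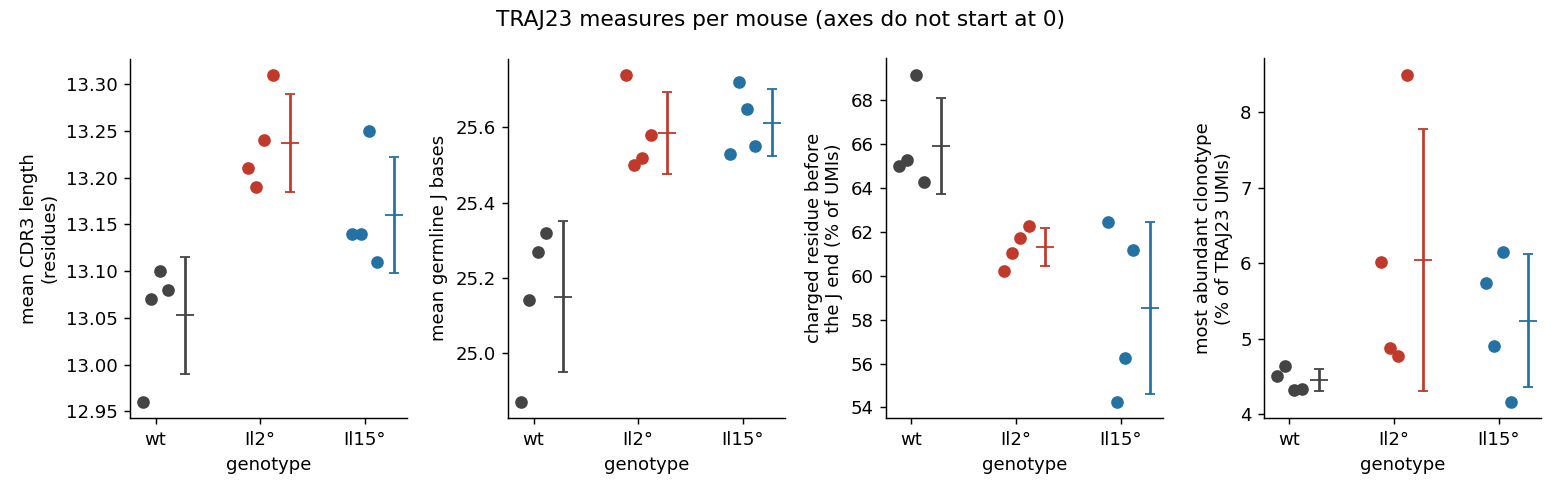
Each panel plots 1 measure of TRAJ23 (y axis) per mouse (points) for the 3 genotypes (x axis), with mean ± SD of 4 mice beside the points. In the panels of CDR3 length and germline J bases all wt mice lie below all mutants, in the panel of charged residues they lie above them (64.3% to 69.2% in wt against at most 62.4%), and in the panel of the most abundant clonotype they lie below all Il2° mice.

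By class of CDR3, short sequences separated wt from both mutants, while the NYNQGKLIF end separated Il15° but not Il2° mice from wt. NYNQGKLIF ends made up 33.7% to 36.8% of TRAJ23 UMIs in wt and 42.04% to 44.3% in Il15° mice, without overlap, and 28.9% to 41.7% in Il2° mice, a range that spans that of wt. Short CDR3s of 10 to 12 residues made up 24.4% to 30.2% in wt, 16.8% to 22.3% in Il2° and 19.7% to 22.5% in Il15° mice. DYNQGKLIF ends varied most in Il2° mice, from 17.8% to 32.2%, the highest value being that of the fourth Il2° library. That library was the shallowest, with 506 TRAJ23 UMIs among 7625. These classes were picked after their values had been seen and were not tested.

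**Figure D4:**
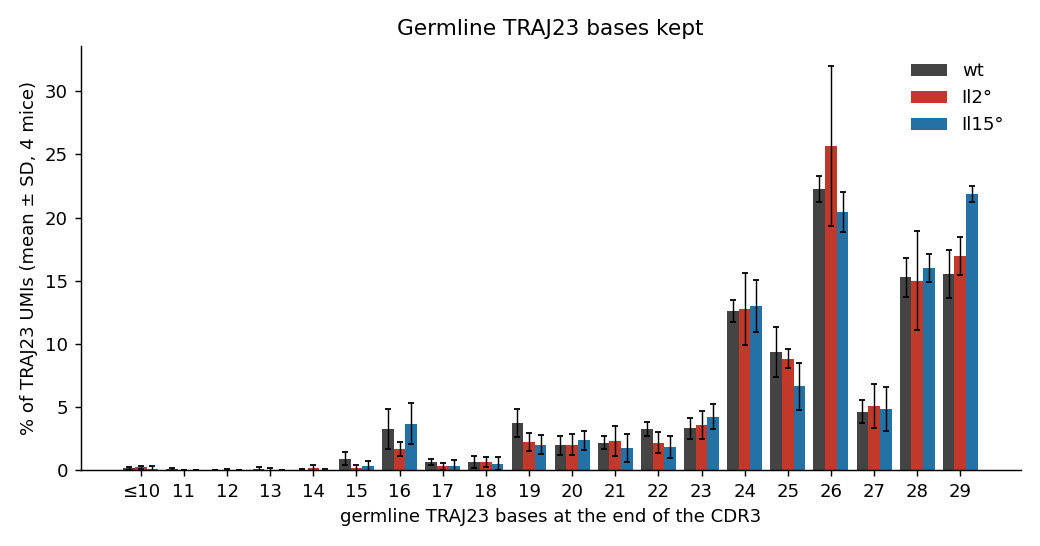
Percent of TRAJ23 UMIs (y axis, mean ± SD of 4 mice) by the number of germline TRAJ23 bases that end the CDR3 (x axis), for wt, Il2° and Il15° mice. The peaks at 26, 28 and 29 bases are the DYNQGKLIF and NYNQGKLIF classes, and at 29 bases Il15° mice reach 21.9% ± 0.639 against 15.5% ± 1.91 in wt.

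The share of TRAJ23 UMIs with a charged residue before the J end was lower in every mutant mouse than in every wt mouse. Such residues were found in 65.0%, 65.3%, 69.2% and 64.3% of TRAJ23 UMIs in wt, 60.2%, 61.0%, 61.7% and 62.3% in Il2°, and 62.4%, 54.3%, 56.2% and 61.2% in Il15° mice. Both mutants lay below wt without overlap, with differences of -4.61 and -7.39 percentage points (exact Mann-Whitney p = 0.0286, adjusted p = 0.0964 each). With each clonotype counted once they were -4.20 and -6.80 (exact Mann-Whitney p = 0.0571 and 0.0286), and the separation of Il2° from wt mice was lost. The residues counted include those from V segments, and V usage was not adjusted for. Aromatic or aliphatic residues were at 75.3% ± 2.45 in Il2°, 69.0% ± 2.30 in wt and 69.4% ± 4.33 in Il15° mice, and the Il2° libraries lay above every wt library (exact Mann-Whitney p = 0.0286, adjusted p = 0.0964). That difference of 6.35 percentage points was 3.10 with each clonotype counted once (exact Mann-Whitney p = 0.343). Inserted bases averaged 3.07 ± 0.0543 in wt, 3.26 ± 0.135 in Il2° and 3.19 ± 0.344 in Il15° mice, with exact Mann-Whitney p values of 0.0571, 1 and 0.343 for the 3 comparisons.

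With all clonotypes included, 2 measures of TRAJ23 diversity overlapped between the genotypes. The number of clonotypes expected in 506 TRAJ23 UMIs, the smallest total, was 166 to 230 in wt, 140 to 223 in Il2° and 119 to 203 in Il15° mice. The effective number of clonotypes (the exponential of Shannon's entropy) was 167 ± 33.3 in wt and 130.5 ± 42.3 in Il2° mice, and from 68.1 to 178 in Il15° mice. Exact Mann-Whitney p values of these 6 comparisons were between 0.343 and 0.886. With clonotypes of at least 2 UMIs the effective number was lower in every Il2° than in every wt mouse (a difference of -55.1, exact Mann-Whitney p = 0.0286). Depth separated these groups too, with 506 to 1006 TRAJ23 UMIs in Il2° and 1018 to 1463 in wt libraries. Clonotypes of 1 UMI, which this setting drops, were 37.72% to 63.13% of TRAJ23 clonotypes in Il2° and 13.99% to 28.98% in wt libraries. The most abundant clonotype held 4.45% ± 0.149 of TRAJ23 UMIs in wt mice, and 6.02%, 4.87%, 4.77% and 8.50% in Il2° mice, all above wt (exact Mann-Whitney p = 0.0286, adjusted p = 0.0964). The part of depth in this difference and in that of the effective number was not tested.

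Most TRAJ23 clonotypes were found in few mice, as were those of other J segments. A single library held 669 of them (49.7%, against 52.8% for other J segments), while 11 (0.817%, against 0.846%) were found in all 12. Those 11 clonotypes held 20.4% ± 4.24 of the TRAJ23 UMIs of a library. The clonotypes of other J segments found in all 12 libraries held 29.7% ± 1.21 of theirs, and TRAJ23 was lower in 12 of 12 libraries (exact 2-sided sign-flip permutation p = 0.000488, adjusted p = 0.000684). With each clonotype counted once the difference was -0.234 percentage points (exact permutation p = 0.125).

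**Figure D5:**
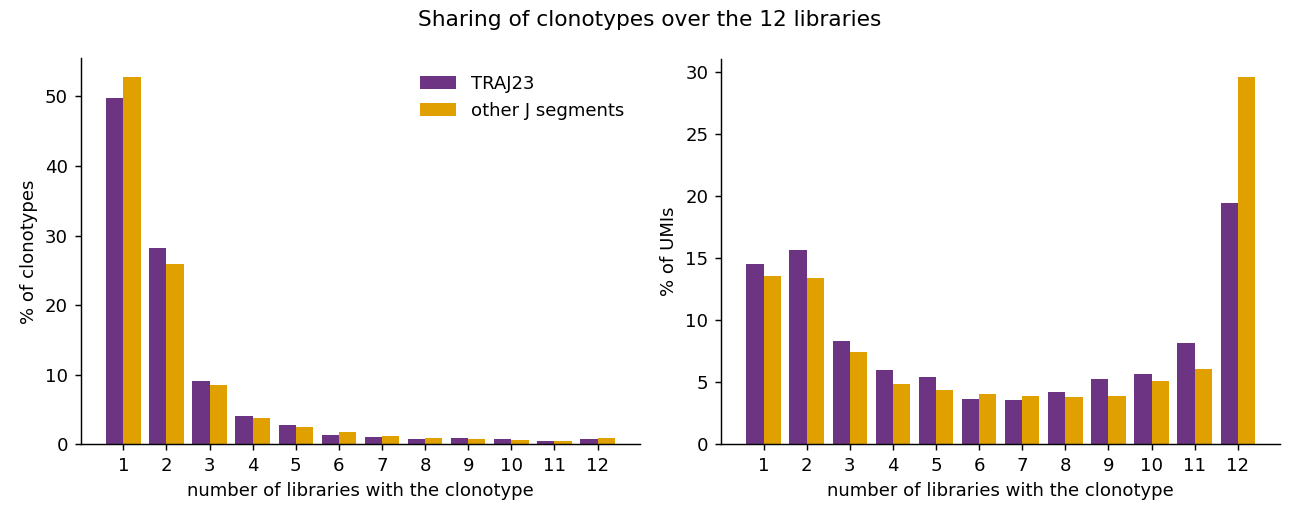
Percent of clonotypes (left, y axis) and percent of UMIs (right, y axis) by the number of libraries in which a clonotype was found (x axis), pooled over 12 libraries, for TRAJ23 and for all other J segments. Clonotypes found in 1 library are 49.7% of TRAJ23 clonotypes, and those in all 12 libraries hold 19.4% of TRAJ23 UMIs against 29.6% of the others.

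Widely shared TRAJ23 clonotypes were encoded by more nucleotide sequences, as were those of other J segments. Clonotypes of 1 library had 1.01 ± 0.109 nucleotide forms, those of 4 to 8 libraries 2.40 ± 1.08, those of 9 to 11 libraries 4.23 ± 2.54 and the 11 of all libraries 5.36 ± 2.501 (mean ± SD over clonotypes). In other J segments the means of these classes were 1.01, 2.63, 4.65 and 7.37. Clonotypes with more UMIs have more chances to show both many forms and many libraries. Inserted bases averaged 5.11 in clonotypes of 1 library and 2.24 in those of 9 to 11 libraries. The 11 clonotypes of all libraries stood at 3.68 ± 1.00, where the 163 of other J segments had 2.25 ± 1.84. Of these 11, 4 used TRAV7-2, and the remaining ones used TRAV7-3, TRAV7N-5, TRAV6-3, TRAV8-1, TRAV12D-2 and, for 2 of them, TRAV6D-6.

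The most abundant TRAJ23 clonotype was TRAV6D-6 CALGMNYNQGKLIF. It took 0.254%, 0.263%, 0.275% and 0.294% of all UMIs in wt, 0.301%, 0.263%, 0.293% and 0.498% in Il2°, and 0.433%, 0.262%, 0.307% and 0.285% in Il15° libraries. It kept a similar level in all mice but the fourth Il2° and the first Il15° mouse, in which it was higher. Its 596 UMIs came in 4 nucleotide forms, and the form shown above, with all 29 germline bases, was found in 12 libraries.

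TRAV7N-5 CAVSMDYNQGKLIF was second. It took 0.169% to 0.294% of UMIs in wt, 0.225% to 0.564% in Il2° and 0.102% to 0.262% in Il15° libraries. It had the lowest p among TRAJ23 clonotypes in Il15° against Il2° mice, with a log2 fold change of -1.03 ± 0.434 (edgeR adjusted p = 0.489). The form shown above made up 95.2% of its UMIs, unlike TRAV6D-6 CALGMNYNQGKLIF, in which the leading form made up 46.5%. TRAV7-2 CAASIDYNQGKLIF took 0.144% ± 0.0245 in wt, 0.221% ± 0.0962 in Il2° and 0.157% ± 0.104 in Il15° libraries.

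Other abundant clonotypes were missing from single mice. TRAV7-2 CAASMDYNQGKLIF, with the same CDR3 end as TRAV7N-5 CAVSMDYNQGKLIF, had 38, 49, 26 and 29 UMIs in wt, 2, 35, 31 and 23 in Il2°, and 35, 7, 0 and 29 in Il15° libraries. It was low or missing in 1 Il2° and 2 Il15° mice. TRAV6-5 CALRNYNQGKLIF had 20 to 35 UMIs in wt, 4 to 43 in Il2°, and 28, 0, 19 and 14 in Il15° libraries. TRAV4D-3 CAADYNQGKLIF, with no inserted bases in the form shown, had 20, 0, 31 and 15 UMIs in wt, 2, 5, 0 and 6 in Il2°, and 26, 0, 0 and 24 in Il15° libraries. A count of 0 allows up to 3 UMIs, which is 0.0116% of the deepest and 0.0393% of the shallowest library.

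No TRAJ23 clonotype passed the edgeR threshold between genotypes. Of 35, 38 and 28 TRAJ23 clonotypes with enough UMIs in Il2° against wt, Il15° against wt and Il15° against Il2° mice, 0 were called in each, where 0%, 0% and 0.276% of all clonotypes tested were. DESeq2 also called 0 TRAJ23 clonotypes in each, beside 2, 5 and 3 of all clonotypes tested. At an unadjusted p under 0.05 there were 2, 1 and 2, beside 9.27%, 4.18% and 9.39% of all clonotypes tested. The median log2 fold changes of the TRAJ23 clonotypes were 0.27, -0.23 and -0.19, and those of all clonotypes 0.10, -0.17 and -0.12. In simulated counts for these comparisons, edgeR recovered 73 of 200, 67 of 200 and 38 of 181 clonotypes given a 4-fold change. A result of 0 calls therefore does not show that no clonotype changed.

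Apart from TRAV7N-5 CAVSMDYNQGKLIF, given above, the TRAJ23 clonotypes with the lowest p had few UMIs. TRAV12D-2 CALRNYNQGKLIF had 17, 10, 22 and 18 UMIs in wt and 0, 0, 7 and 1 in Il2° libraries (log2 fold change -2.38 ± 0.996, edgeR adjusted p = 0.391). All wt counts lay above all Il2° counts, and Il15° libraries had 16, 1, 2 and 17. TRAV3-3 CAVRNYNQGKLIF, which shares its germline J run and the lack of inserted bases, went the other way, with 0, 7, 0 and 0 UMIs in wt and 11, 13, 7 and 0 in Il2° libraries (log2 fold change 2.60 ± 1.22, edgeR adjusted p = 0.490). The same CDR3 on the copy TRAV3D-3 had a log2 fold change of -1.40 ± 1.27 (edgeR adjusted p = 0.824), and reads can be split between copies. TRAV4D-3 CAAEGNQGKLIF had 10, 16, 9 and 9 UMIs in wt and 4, 0, 0 and 3 in Il15° libraries (log2 fold change -2.34 ± 1.06, edgeR adjusted p = 0.982).

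Another 3 clonotypes were among those of lowest p, none past the threshold. TRAV3D-3 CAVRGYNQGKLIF had 6 to 9 UMIs in each wt library, 3 to 11 in each Il2° library and 0, 0, 0 and 5 in Il15° libraries (edgeR adjusted p = 0.982 against wt and 0.504 against Il2°). TRAV7-2 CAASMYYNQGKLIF had 2 to 9 UMIs in wt, 7 to 14 in Il2° and 6, 0, 4 and 0 in Il15° libraries (edgeR adjusted p = 0.617 for Il2° against wt). TRAV12D-2 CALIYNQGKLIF had 3 to 10 UMIs in wt and 6, 0, 0 and 1 in Il15° libraries (edgeR adjusted p = 0.982). These clonotypes were read in few molecules per library, so that fold changes of several units came with wide errors.

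Public clonotypes, those found in all 4 mice of a genotype, were then compared. There were 38 public TRAJ23 clonotypes in wt, 25 in Il2° and 26 in Il15° mice. They were 5.57%, 3.84% and 4.99% of the TRAJ23 clonotypes of the genotype, where 5.79%, 4.12% and 5.64% of the clonotypes of other J segments were public. Depth differs between libraries, and at the depth of the shallowest library 23.9, 19.9 and 16.5 public TRAJ23 clonotypes would be expected. The UMIs of TRAJ23 belonged to public clonotypes at 36.9% ± 3.43 in wt, 38.9% ± 4.57 in Il2° and 28.01% ± 6.71 in Il15° mice, where those of other J segments did at 45.3% ± 3.25, 40.7% ± 2.78 and 40.02% ± 1.18.

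Few public TRAJ23 clonotypes were absent from another genotype. Of 55 clonotypes public in any genotype, 11 were public in all 3, 17 in wt only, 4 in Il2° only and 11 in Il15° only. Of the 38 public in wt, 19 were not public in Il2° mice (50%, against 55.2% for other J segments) and 25 not in Il15° mice (65.8%, against 60.7%). Yet 2 and 1 of the 38 were found in no Il2° or no Il15° library, 5.26% and 2.63%, where 5.86% and 12.8% of the public clonotypes of other J segments were. TRAV7-2 with a CDR3 of 15 residues, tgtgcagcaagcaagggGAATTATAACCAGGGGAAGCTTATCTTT in its most frequent form, was seen in wt mice alone, at 2, 4, 9 and 5 UMIs. TRAV4D-3 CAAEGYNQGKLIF had 6, 3, 5 and 6 UMIs in wt, 0 in the Il2° and 3, 5, 0 and 0 in the Il15° libraries.

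Of the 26 public in Il15° mice, 4 were found in no wt library and 4 in no Il2° library, that is 15.4% each, against 6.63% for other J segments in both cases. TRAV6D-6 with a CDR3 of 15 residues, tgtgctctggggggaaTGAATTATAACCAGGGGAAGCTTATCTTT in its most frequent form, had 3, 4, 1 and 8 UMIs in Il15° libraries and 0 in the 8 others. All 29 germline J bases were kept in that form. TRAV7-2 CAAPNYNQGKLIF had 1, 9, 1 and 3 UMIs, and it too was in no wt and no Il2° library. The CDR3 alone was not confined to Il15° mice, since on 4 V segments it had 42 UMIs in 8 libraries. TRAV4N-3 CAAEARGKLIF, with only 16 germline J bases, had 2, 3, 13 and 6 UMIs in Il15°, 0 in Il2° and 3 in 1 wt library. TRAV13N-2 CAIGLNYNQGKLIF had 1, 6, 5 and 1 UMIs in Il15° libraries, 0 in wt and 5 in 1 Il2° library. In Il2° mice TRAV8N-2 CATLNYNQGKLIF was public with 1, 4, 1 and 1 UMIs, was in no Il15° library, and had 4 UMIs in 1 wt library. At such counts presence and absence are close to the limit of detection, and these clonotypes were selected on their absence.

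By the mean index, the TRAJ23 repertoires of wt mice were the most alike and those of Il15° mice the least, a contrast that was not tested. The Morisita-Horn index, which is 1 for identical and 0 for disjoint repertoires, was taken over TRAJ23 clonotypes with at least 5 UMIs, 19 to 88 per library. The mean over 6 pairs of mice was 0.741 ± 0.0674 (SD) for wt, 0.697 ± 0.0639 for Il2° and 0.478 ± 0.106 for Il15°. Il15° pairs ranged from 0.337 to 0.643 and overlapped the wt range of 0.637 to 0.810 only at its lower end.

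Between genotypes the index was 0.676 ± 0.0698 for Il2° with wt, 0.611 ± 0.108 for Il15° with wt and 0.557 ± 0.0809 for Il15° with Il2° (16 pairs each). Mice of the same genotype were closer than mice of different genotypes by 0.0435 for Il2° and wt (exact 1-sided permutation p = 0.0286, the smallest possible over 35 divisions of the 8 mice). For Il15° with wt the difference was -0.000916 (exact permutation p = 0.486) and for Il15° with Il2° it was 0.0304 (exact permutation p = 0.0571). The Il2° and wt difference was 0.0238 with a p of 0.171 in the same exact permutation test when clonotypes with 1 UMI or more were used, and it no longer passed when any wt mouse or the first or the fourth Il2° mouse was left out (0.0241 to 0.0605). Leaving out the first, the second or the third Il15° mouse gave differences of 0.0664, 0.0814 and 0.0689 between Il15° and Il2°, each with an exact permutation p of 0.0286, and leaving out the fourth gave 0.0508 (p = 0.0571). Leaving out any 1 Il2° mouse removed it, with differences from -0.0187 to 0.000380 and exact permutation p values from 0.514 to 0.686.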

How the data were processed

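TCRα libraries of thymic Treg from 12 mice were analysed. The authors filtered reads by quality, used pRESTO to build a consensus for every UMI seen in at least 2 reads, then MiXCR to assign V, CDR3 and J, and wrote the output in VDJtools format. Versions of these tools are not given in the sources used here. The submitters' processing notes name the build mm10. The deposited count of a row is its number of UMIs, not normalized. The deposited fraction, that count over the library total, was not used further. The deposited positions of V end and J start (another unit, in bases) served only in 1 alternative.

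Groups and replicate numbers came from the labels. Libraries held 7625 to 25980 UMIs and 506 to 1463 TRAJ23 UMIs. Wilson 95% intervals and the limit of 3 UMIs for a count of 0 cover counting error only. The 85 out-of-frame TRAJ23 rows (179 UMIs) were left out. No pair of libraries of a genotype was found to be a duplicate. V and J bases were counted as exact matches to germline ends in GENCODE M21 (GRCm38, equal to mm10), found for 102 of 105 V names with 98.0% of UMIs, and chance matches are included. Copies of V segments were kept apart as named.

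V-J pairs, from in-frame rows, and clonotypes, in frame or not, were tested if they reached 5 UMIs in 4 or more of the 8 libraries. Their UMI counts were tested with edgeR 4.0.16 (quasi-likelihood, TMM, R 4.3.3), with adjusted p under 0.05 as threshold. Mice were compared by exact 2-sided Mann-Whitney tests, TRAJ23 with other J segments by exact sign flips over mice, and similarity by exact permutation. Scripts used Python 3.11.15, numpy 2.4.6, pandas 2.3.3, scipy 1.17.1 and DESeq2 1.42.0 and were tested on simulated data.

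The segment, gene lists and tests were chosen with earlier results of these data known. Named V segments hold at least 3% of TRAJ23 UMIs in a genotype. Named clonotypes are the 10 most abundant, the 3 with the lowest p in each comparison, and up to 3 that are public in a genotype and absent from another. Names beyond this were chosen after their values were seen. Alternatives were DESeq2, other scaling and filters, merged V copies, other clonotype definitions, blocking by replicate number and leaving out each library.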

Additional observations from a re-analysis of the deposited data

Results flagged for a closer look

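In 11 of 138 groups of 4 mice checked (measures, V partners and named clonotypes of TRAJ23), a library lay far from the other 3 by Dixon's criterion. The criterion flags about 1 in 20 groups of independent, normally distributed values. Clonotypes at 0 in 3 mice pass it by construction, and a V segment and its main clonotype are not independent. The 11 cases can therefore not be read against that rate. TRAV6D-6 held 9.09% of TRAJ23 UMIs in the fourth Il2° mouse, above 7.28% to 7.42% in the others, and its clonotype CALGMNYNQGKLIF took 0.498% of all UMIs there, above 0.263% to 0.301%. That library was the shallowest. In the third Il15° mouse TRAV6D-6 was at 8.01%, above 6.60% to 6.77%, and in the fourth Il15° mouse TRAV7N-5 was at 2.12%, below 5.03% to 5.59%. TRAV7-2 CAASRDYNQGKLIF took 0.146% of UMIs in the second wt mouse, above 0.0376% to 0.0539%. The 6 other cases are clonotypes of few UMIs that were at or near 0 in 3 mice of a genotype. They are TRAV3D-3 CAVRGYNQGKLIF at 0.0269% in the fourth Il15° mouse, TRAV3-3 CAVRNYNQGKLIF at 0.0293% in the second wt mouse, TRAV12D-2 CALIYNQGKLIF at 0.0333% in the first Il15° mouse, TRAV4N-3 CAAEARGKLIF at 0.0188% in the third wt mouse, TRAV13N-2 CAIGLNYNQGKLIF at 0.0268% in the second Il2° mouse and TRAV8N-2 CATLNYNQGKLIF at 0.0231% in the fourth wt mouse. For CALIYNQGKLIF the others reached up to 0.00538%, and for the remaining 5 they were at 0.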

How the results depend on the processing

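Libraries differed in depth, and its effects on single clonotypes, presence and shares of V segments were not compared. The alternatives moved the following values, whose cause was not tested. With each clonotype counted once, Il15° minus Il2° CDR3 length was 0.108 residues, and TRAJ23 minus other J segments was -0.142 for length, -0.0255 for inserted bases, 0.364 for the percent without inserted bases, -0.234 for the percent in clonotypes of all 12 libraries and 0.340 for TRAV4N-3. With the deposited positions, an alternative chosen after seeing the data, inserted bases differed by -0.0352 (Il2° minus wt), 0.0737 (Il15° minus Il2°) and -0.0847 (TRAJ23 minus others), and the percent without inserted bases by 5.52. With clonotypes of at least 2 UMIs, Il15° minus Il2° was -0.149 for J bases, 15.4 for the effective number and 2.15 for the expected number of clonotypes, and with CDR3 nucleotides the expected number was 1.46 for Il2° minus wt. Similarity within minus between genotypes was 0.0238 for Il2° and wt and 0.0148 for Il15° and wt with at least 1 UMI, and 0.00437 for the latter with V copies merged. Public TRAJ23 clonotypes numbered 16 in Il2° and 11 in Il15° at 2 UMIs or more, 83, 64 and 71 in wt, Il2° and Il15° in at least 3 of 4 mice, and 23.9 and 16.5 in wt and Il15° at the depth of the smallest library. DESeq2 called 1 TRAJ23 pair, TRAV12D-2, in Il2° against wt. With 1 mouse left out, values ranged from -0.0518 to 0.205 inserted bases for Il15° minus wt and from -0.239 to 0.0173 for Il15° minus Il2°, from -0.890 to 0.706 for the percent without inserted bases, -0.00645 to 0.0808 for J bases, -16.3 to 20.2 for the effective number and -1.23 to 0.0168 for the top clonotype (all Il15° minus Il2°), from -1.06 to 1.77 for aromatic or aliphatic residues (Il15° minus wt), and from -17.0 to 11.5 for the expected number (Il2° minus wt). Similarity ranged from 0.0241 to 0.0635 for Il2° and wt, -0.0566 to 0.0622 for Il15° and wt and -0.0187 to 0.0814 for Il15° and Il2°. The 4 differences of length and J bases from wt kept their sign in every alternative run, but with each clonotype counted once that of length between Il2° and wt was 0.0697 residues (exact Mann-Whitney p = 0.686).

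Replicate numbers are shared between genotypes but belong to different mice, and correlations of same-numbered libraries were between -0.0920 and 0.168. With the number as a block, edgeR called 1 TRAJ23 pair in Il15° against Il2°, TRAV4N-3 (log2 fold change 1.35, adjusted p = 0.0464), that is 1 of 31 beside 8 of all 471 pairs. Over all pairs or clonotypes, the calls went from 2 to 0 pairs in Il2° against wt, from 0 to 8 pairs and from 1 to 0 clonotypes in Il15° against Il2°, and stayed at 0 in the other comparisons.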
